A study of Mus musculus with 8 samples.

Results

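Heparan sulfate is a sulfated sugar chain that is built on core proteins in the Golgi and displayed on the cell surface and in the matrix. The 10 genes described here cover the steps that shape it. Sulf1 and Sulf2 encode secreted enzymes that remove 6-O-sulfate groups from finished chains, Ext1 and Ext2 encode the polymerase, Ndst1 and Hs6st1 encode sulfotransferases, and Gpc3, Gpc4, Sdc1 and Sdc4 encode core proteins. The genes were chosen as a named list out of 17773 genes with a usable value, and all 10 were measured and passed the filter on low values. Sulf1 was chosen by its measured level, which fell mainly in one of the knockouts (E3-KO), so its values are a description and carry no test. The other 9 were taken for their place in the pathway, with earlier results of these data known.

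Chains carry sulfate at several positions, and growth factors bind them through the pattern of these sulfates. FGF4, which mouse embryonic stem cells make themselves, needs heparan sulfate to signal through its receptors, and stem cells that lack the chains leave the self-renewing state poorly. Glypicans such as Gpc3 and Gpc4 are held on the outer membrane by a lipid anchor, whereas syndecans such as Sdc1 and Sdc4 span the membrane.

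The samples were E14TG2a mouse embryonic stem cells of the 129/Ola strain at passages 3 to 6. All were kept without feeder cells on gelatin in serum medium with leukaemia inhibitory factor, the GSK3 inhibitor CHIR99021 and the MEK inhibitor PD0325901, so the controls carried both inhibitors too. Unedited cells (WT) were set against 3 enhancer knockouts made with CRISPR/Cas9, named E1-KO, E2-KO and E3-KO, with 2 replicates per group and 8 samples of total RNA. The question of the series is how different enhancer contacts act on what Sox2 does, Sox2 being a transcription factor gene of pluripotent cells. The labels give neither the enhancer positions nor whether a line is 1 clone, and no edited control line was analysed here, so enhancer loss cannot be told apart from clone or culture. Replicates are called biological duplicates, with no word on separate cultures, so p-values measure only the spread between these samples.

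Values are FPKM, a unit that divides fragments by the size of the library and the length of the transcript, inferred from the Cufflinks output named in the submitters' notes. Depth in reads is unknown. Steps between low values gave relative depths of 0.787 to 1.01 times that of WT replicate 1, and 11104 to 11292 genes per sample reached 1 FPKM. Sox2 stood at 130.5 and 136.3 FPKM in WT and between 58.03 and 113.6 FPKM in the 6 knockout samples. Of 10 pluripotent cell markers, 6 were called lower in E1-KO, 3 lower and 2 higher in E2-KO, and 5 lower in E3-KO. Over all tested genes, 22.9%, 21.9% and 30.7% were called lower in the 3 knockouts, and 15.1%, 14.2% and 13.9% higher. Pou5f1, Nanog, Zfp42 and Esrrb were at 146.5 FPKM or more in every sample. Of these, Esrrb stood at 79.7%, 84.6% and 64.5% of WT and was called lower in E1-KO and E3-KO. Klf4 stood at 50.6%, 44.1% and 47.1% of WT and Tfcp2l1 at 49.5%, 56.6% and 66.4%. Pou5f1 stood at 121%, 135% and 123% of WT and Zfp42 at 117%, 145% and 105%. These were the 2 markers called higher in E2-KO. Fold changes were taken of log2(FPKM + 1), where changes of low genes come out too small, and adjusted p-values come from limma-trend over 11299 genes, with a call at an adjusted p under 0.05. Over all tested genes the median changes in the 3 knockouts were -0.06, -0.08 and -0.15. Median-ratio scaling moved the E3-KO median to 0.007, and the share of lower genes among its calls from 68.8% to 49.6%. The same scaling took that share from 60.4% to 50.5% for E1-KO and from 60.8% to 48.1% for E2-KO. For E3-KO against E1-KO it went from 63.5% to 47.4%, and against E2-KO from 64.7% to 48.9%.

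Sequences are shown for the members with the largest tested falls (Sdc4 and Gpc3) and for Hs6st1, whose change differed between knockouts. They are the 250 bases before the transcript start from RefSeq, build GRCm38.p6, printed 5′ to 3′ on the strand of the gene. Each GC box (GGGCGG, either strand) is in capitals. The Sdc4 window lies inside the gene span of GENCODE. Of the 10 members, 7 had an entry in the promoter table.
Sdc4 (chr2:164443189-164443438, minus strand): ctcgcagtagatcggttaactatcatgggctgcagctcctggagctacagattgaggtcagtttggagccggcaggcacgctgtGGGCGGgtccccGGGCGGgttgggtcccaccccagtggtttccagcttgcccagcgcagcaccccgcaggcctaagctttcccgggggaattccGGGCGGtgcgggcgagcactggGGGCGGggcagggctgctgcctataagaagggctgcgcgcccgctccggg
Gpc3 (chrX:52613975-52614224, minus strand): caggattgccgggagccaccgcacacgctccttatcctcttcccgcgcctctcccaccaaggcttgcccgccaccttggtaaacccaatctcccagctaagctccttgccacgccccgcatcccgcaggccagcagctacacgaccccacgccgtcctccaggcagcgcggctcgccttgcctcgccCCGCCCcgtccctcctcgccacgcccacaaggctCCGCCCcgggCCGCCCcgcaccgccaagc
Hs6st1 (chr1:36068150-36068399, plus strand): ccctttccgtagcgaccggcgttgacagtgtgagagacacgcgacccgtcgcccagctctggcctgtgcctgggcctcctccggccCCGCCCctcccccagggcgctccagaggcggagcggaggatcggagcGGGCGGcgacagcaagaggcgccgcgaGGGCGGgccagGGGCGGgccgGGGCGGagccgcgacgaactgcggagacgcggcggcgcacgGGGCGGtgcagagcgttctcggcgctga

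All 3 windows were rich in G and C, with 68.0% in Sdc4, 71.6% in Gpc3 and 76.4% in Hs6st1, against a median of 52.4% over all promoter entries. The GC box occurred 4 times in Sdc4, 3 times in Gpc3 and 6 times in Hs6st1, and 32.7% of all windows of this length held it at least once. The TATA-box core TATAA occurred once in Sdc4 and in neither of the others, with 22.8% of all windows holding it. The SOX core ACAAAG, searched on both strands and held by 16.5% of all windows, had no match in the 3 sequences, which says only that these letters are not in these windows. The 3 motifs are different words, none of which contains another, and a match is a description of the sequence.

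**Figure D1:**
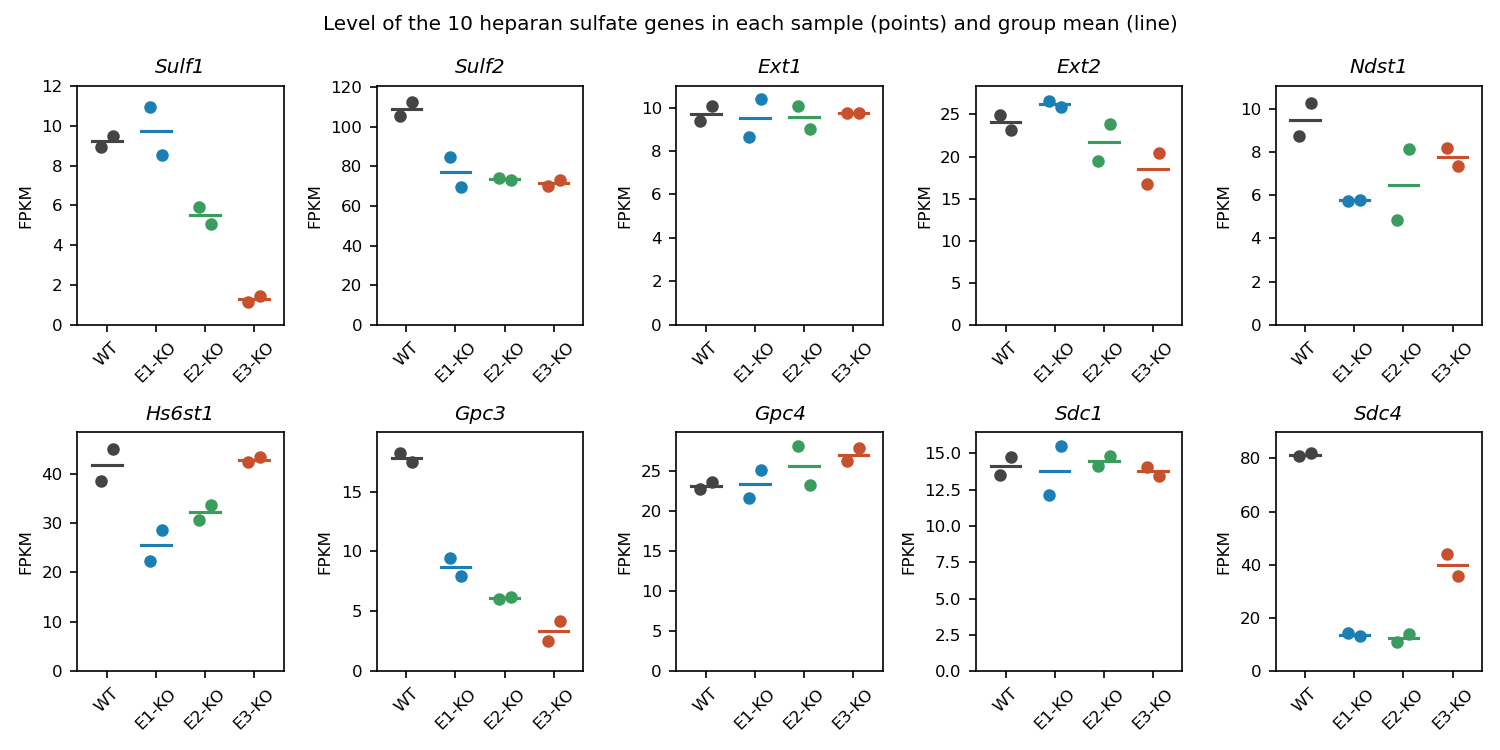
Level of each of the 10 genes in FPKM (vertical axes, from 0) by group, with a point per sample and a line at the group mean. Sulf1 is lowest in both E3-KO samples, Sdc4 is lowest in E1-KO and E2-KO, and Ext1 and Sdc1 overlap WT in every knockout.

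Sulf1 (ENSMUSG00000016918, chromosome 1, 12692277 to 12861192 on the plus strand in GRCm38) was at 8.931 and 9.509 FPKM in WT. It was at 10.94 and 8.542 FPKM in E1-KO, on either side of both WT samples. In E2-KO it was at 5.929 and 5.087 FPKM, and in E3-KO at 1.143 and 1.439 FPKM. The order from high to low was E1-KO (9.74 ± 1.7 FPKM, SD, n = 2), WT (9.22 ± 0.409), E2-KO (5.51 ± 0.596) and E3-KO (1.29 ± 0.209). E1-KO and WT overlapped, and all other neighbours in this order were separated, with both E2-KO samples below and both E3-KO samples farther below. As a share of the WT mean, Sulf1 stood at 106%, 59.7% and 14.0%. On the log2 scale the differences from WT were 0.06, -0.65 and -2.16. The E3-KO value ranged from -2.01 with quantile normalization to -2.75 with a pseudocount of 0.1, and the small E1-KO value took either sign when an E1-KO sample was left out (-0.10 without replicate 1 and 0.23 without replicate 2).

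The identifier of Sulf1 also had a second row, placed among the minus-strand genes between Cpa6 and Slco5a1. That row held 0.3851 and 0.1982 FPKM in WT, 0.3374 and 1.258 in E1-KO and 0.3981 and 1.0 in E2-KO, and it was listed at 0 in both E3-KO samples. Whether counting used the strand is not given in the sources used here. Adding the rows gave 9.317 and 9.707 FPKM in WT, 11.28 and 9.799 in E1-KO and 6.327 and 6.087 in E2-KO. It left E3-KO at 1.143 and 1.439. With the rows added, both E1-KO samples were above both WT samples, so the overlap of E1-KO and WT rests on the row used. The E2-KO difference from WT was then -0.54 in place of -0.65.

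Sulf2 (ENSMUSG00000006800, chromosome 2, 166073089 to 166155663, minus strand), the partner enzyme with the same activity, was the more abundant of the pair per length. It was at 105.5 and 112.6 FPKM in WT, 84.85 and 69.7 in E1-KO. E2-KO held 73.96 and 73.17 FPKM, and E3-KO 70.2 and 73.29. Every knockout sample lay below the WT range. Sulf2 changed by -0.50, -0.56 and -0.60 in the order E1-KO, E2-KO, E3-KO (standard error 0.11 each, limma-trend adjusted p = 0.00815, 0.00517 and 0.00274). Between knockouts the differences were -0.10 to -0.04, and their 95% intervals reached from -0.35 to 0.21 at the widest. The E1-KO call was lost without E1-KO replicate 2 (-0.36, limma-trend adjusted p = 0.0749) or WT replicate 2 (-0.45, 0.0716), and the E2-KO call without WT replicate 2 (-0.51, 0.0515). Sulf1 made up 7.79% of the summed Sulf1 and Sulf2 level in WT (SD 0.0125, n = 2). Its share was 11.2% ± 0.357 for E1-KO, 6.96% ± 0.652 for E2-KO and only 1.76% ± 0.229 for E3-KO. The sum of both was 118 FPKM in WT and 87.0, 79.1 and 73.0 FPKM in the knockouts.

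Of the polymerase subunits, Ext1 overlapped WT in every knockout and Ext2 was below WT in both E3-KO samples. Ext1 (ENSMUSG00000061731, chromosome 15, 53064038 to 53346159) was at 9.372 and 10.07 FPKM in WT, and its 6 knockout samples lay between 8.627 and 10.38 FPKM, around the WT values. Its log2 fold changes were -0.03, -0.02 and 0.00, with 95% intervals inside -0.32 to 0.29 (limma-trend adjusted p = 0.85, 0.891 and 0.976). Ext2 (ENSMUSG00000027198, chromosome 2, 93661028 to 93822568) was at 24.92 and 23.17 FPKM in WT, 26.54 and 25.84 in E1-KO. The levels were 19.5 and 23.86 FPKM for E2-KO, against 16.74 and 20.4 for E3-KO. Both E1-KO samples were above both WT samples and both E3-KO samples below them. The E3-KO change of -0.36 just missed the threshold (limma-trend adjusted p = 0.0504), and it passed without E3-KO replicate 2 (-0.50, 0.0294), without E2-KO replicate 1 (0.0327), without E2-KO replicate 2 (0.033) and with a mean of at least 5 FPKM (0.0484). E3-KO was below E1-KO by -0.48 (limma-trend adjusted p = 0.0269), a call lost under 3 other scalings (0.0822 to 0.0844) and without E1-KO replicate 1 (0.134), E1-KO replicate 2 (0.103) or E3-KO replicate 1 (0.126).

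Ndst1 (ENSMUSG00000054008, chromosome 18, 60684494 to 60748650) encodes the enzyme that replaces acetyl by sulfate on glucosamine, the step that opens the chain to further sulfation. It was at 8.742 and 10.27 FPKM in WT, 5.747 and 5.799 in E1-KO. For E2-KO it read 4.851 and 8.133 FPKM, for E3-KO 8.178 and 7.372. Every knockout sample was below the WT range, and the E2-KO samples were far apart. The fall in E1-KO was -0.63 (standard error 0.196, limma-trend adjusted p = 0.0327), whereas -0.52 in E2-KO and -0.26 in E3-KO missed the threshold (0.0666 and 0.313). The E1-KO call was lost with quantile normalization (0.0685), median-ratio scaling (0.0503) and no filter (0.0783), and without E1-KO replicate 1 (0.124), E1-KO replicate 2 (0.111), WT replicate 1 (0.071) or WT replicate 2 (0.179). Without E2-KO replicate 2 the E2-KO change was -0.84 (limma-trend adjusted p = 0.0066), and E3-KO stood above E2-KO by 0.58 (0.0476). Without E2-KO replicate 1 these values were -0.20 (limma-trend adjusted p = 0.379) and -0.06 (0.843), so the E2-KO values rest on which sample is kept.

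Hs6st1 (ENSMUSG00000045216, chromosome 1, 36068400 to 36106446) encodes the sulfotransferase that adds the 6-O-sulfate groups that Sulf1 and Sulf2 remove. It was at 38.43 and 44.88 FPKM in WT, 22.4 and 28.55 in E1-KO. E2-KO held 30.63 and 33.72 FPKM, and E3-KO 42.41 and 43.26. The E1-KO and E2-KO samples were all below both WT samples, and the E3-KO samples lay between the WT samples. In E1-KO it fell by 0.69 (log2, standard error 0.132, limma-trend adjusted p = 0.00411). The E2-KO change was -0.36 (0.061), which passed with scaling without the 50 highest genes (-0.41, 0.0423), and the E3-KO change was 0.04 (95% interval -0.26 to 0.34, limma-trend adjusted p = 0.809). The direct test of E3-KO against E1-KO gave 0.74 (limma-trend adjusted p = 0.00439), a call that held under all 17 alternatives. Against E2-KO it was higher by 0.40 (0.0713), which passed under quantile normalization (0.0456), scaling without the 50 highest genes (0.0385) and median-ratio scaling (0.0372). In E3-KO, Hs6st1 was at 103% of the WT mean, Sulf1 at 14.0% and the more abundant Sulf2 at 65.8%. In E1-KO these genes were at 61.2%, 106% and 70.8%. Sulf1 and Sulf2 together summed to 118 FPKM in WT, 73.0 in E3-KO and 87.0 in E1-KO.

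Gpc3 (ENSMUSG00000055653, chromosome X, 52272426 to 52613950, minus strand), a glypican that binds Wnt and Hedgehog ligands, was at 18.19 and 17.46 FPKM in WT. It was at 9.456 and 7.991 FPKM in E1-KO. The levels were 6.057 and 6.163 FPKM for E2-KO, against 2.487 and 4.222 for E3-KO. The 4 groups did not overlap, and their order was WT, E1-KO, E2-KO and E3-KO from high to low. The log2 falls of Gpc3 were -0.96, -1.40 and -2.14 in the 3 knockouts (standard error 0.183 each, limma-trend adjusted p = 0.00418, 0.000841 and 9.2e-05), and each call held under all 17 alternatives. E3-KO was below E1-KO by -1.18 (limma-trend adjusted p = 0.00217, held under all 17). E3-KO was below E2-KO by -0.74 (0.0282), a call lost in 9 of the 17 alternatives. They include E3-KO replicate 1 left out (-0.45, 0.0778), E2-KO replicate 1 (0.0897), E2-KO replicate 2 (0.0805) and either WT replicate (0.0536 each). E2-KO against E1-KO gave -0.45 (95% interval -0.86 to -0.03, limma-trend adjusted p = 0.24).

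Gpc4 (ENSMUSG00000031119, chromosome X, 52053021 to 52165252, minus strand) lies 107 kb from Gpc3. It was at 22.74 and 23.64 FPKM in WT, 21.62 and 25.2 in E1-KO. For E2-KO it read 28.11 and 23.25 FPKM, for E3-KO 26.31 and 27.89. Both E3-KO samples were above both WT samples, and the other knockouts overlapped WT. The changes of 0.01, 0.14 and 0.22 missed the threshold (95% interval for E3-KO -0.06 to 0.49, limma-trend adjusted p = 0.18). The E3-KO change passed with quantile normalization (0.38, 0.0264) and median-ratio scaling (0.39, 0.0301). The median change over 382 tested genes of chromosome X was -0.08, -0.06 and -0.16 in the 3 knockouts.

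The syndecans differed from each other. Sdc4 (ENSMUSG00000017009, chromosome 2, 164424247 to 164443887, minus strand), a focal adhesion syndecan, was at 81.03 and 81.92 FPKM in WT. It was at 14.2 and 13.44 FPKM in E1-KO. E2-KO held 10.91 and 13.85 FPKM, and E3-KO 44.14 and 35.65. Every knockout sample lay below WT, and both E3-KO samples lay between WT and the other knockouts. The log2 falls of Sdc4 were -2.48, -2.63 and -1.02 in the 3 knockouts (standard error 0.137 each, limma-trend adjusted p = 2.6e-05, 4.15e-05 and 0.000629). The level in E3-KO was higher than that of E2-KO by 1.61 (limma-trend adjusted p = 0.000597) and than that of E1-KO by 1.46 (0.000317), whereas E2-KO and E1-KO differed by -0.16 (95% interval -0.47 to 0.15, limma-trend adjusted p = 0.582). Each of these calls held under all 17 alternatives. Sulf2 lies 1629 kb from Sdc4, and the median change over 905 tested genes of chromosome 2 was -0.06, -0.09 and -0.11.

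Sdc1 (ENSMUSG00000020592, chromosome 12, 8771323 to 8793715) was at 13.53 and 14.75 FPKM in WT, and the knockout samples lay between 12.11 and 15.47 FPKM. Every knockout overlapped WT, with changes of -0.04, 0.03 and -0.04 and 95% intervals inside -0.34 to 0.32 (limma-trend adjusted p = 0.817, 0.866 and 0.835).

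**Figure D2:**
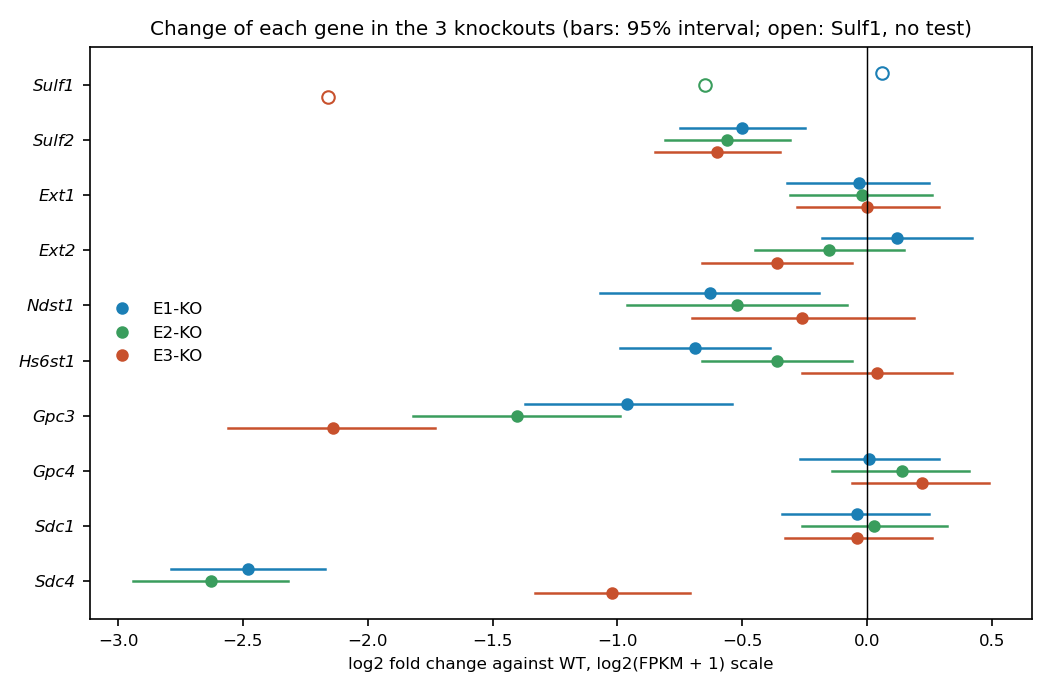
Log2 fold change against WT (horizontal axis, log2(FPKM + 1) scale) of each gene in the 3 knockouts, with 95% intervals as bars. Open points are Sulf1, which has no test. Sdc4 lies farthest left in E1-KO and E2-KO (-2.48 and -2.63), and Gpc3 among the tested genes in E3-KO (-2.14).

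Of the 9 tested members, 5 were called lower in E1-KO (Sulf2, Ndst1, Hs6st1, Gpc3 and Sdc4), or 55.6%, where 38% of all tested genes were called in either direction, 15.1% higher and 22.9% lower. In E2-KO and in E3-KO 3 were called lower (Sulf2, Gpc3 and Sdc4), or 33.3%. The background was 36.1% called for E2-KO (14.2% higher, 21.9% lower) and 44.7% called for E3-KO (13.9% higher, 30.7% lower), so these shares were near it and say nothing particular of the members. The median change of the 9 members was -0.50, -0.36 and -0.26, against -0.06, -0.08 and -0.15 for all tested genes. The 3 comparisons share their WT samples.

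Between knockouts, limma-trend called 4 of the 9 members for E3-KO against E1-KO (Hs6st1 and Sdc4 higher, Ext2 and Gpc3 lower in E3-KO), where 25.7% of all genes were called (9.4% higher, 16.3% lower). For E3-KO against E2-KO it called 2 (Sdc4 higher and Gpc3 lower), where 15.5% were called (5.48% higher, 10% lower). For E2-KO against E1-KO limma-trend called 0 members, with 2 at an unadjusted p under 0.05, and 0.823% of all genes (0.478% higher, 0.345% lower).

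The make-up of the core proteins was read from the same values. The 4 syndecans summed to 99.5 ± 1.83 FPKM in WT (SD, n = 2) and to 31.3 ± 2.92, 33.0 ± 2.29 and 60.4 ± 6.46 FPKM in the 3 knockouts. Sdc4 made up 81.9% of it in WT and 44.4%, 37.4% and 65.9% in E1-KO, E2-KO and E3-KO. Sdc3, a syndecan best known from nervous tissue, made up 3.05% in WT and 8.89%, 16.7% and 9.44% in the 3 knockouts. In E1-KO its own level was not called different from WT (-0.09, limma-trend adjusted p = 0.637), and the larger share there went with the smaller syndecan sum. The 6 glypicans summed to 48.4 ± 1.37 FPKM in WT and to 37.9 ± 1.25, 38.4 ± 3.4 and 37.2 ± 1.97 in the knockouts. Gpc3 made up 36.9% of the glypican level in WT and 23.1%, 16.0% and 8.95% in E1-KO, E2-KO and E3-KO. Gpc4 made up 48.0% in WT and 61.7%, 66.8% and 73.0% in the same knockouts. Its own level was not called different from WT in any of them, and its larger share went with the smaller glypican sum.

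**Figure D3:**
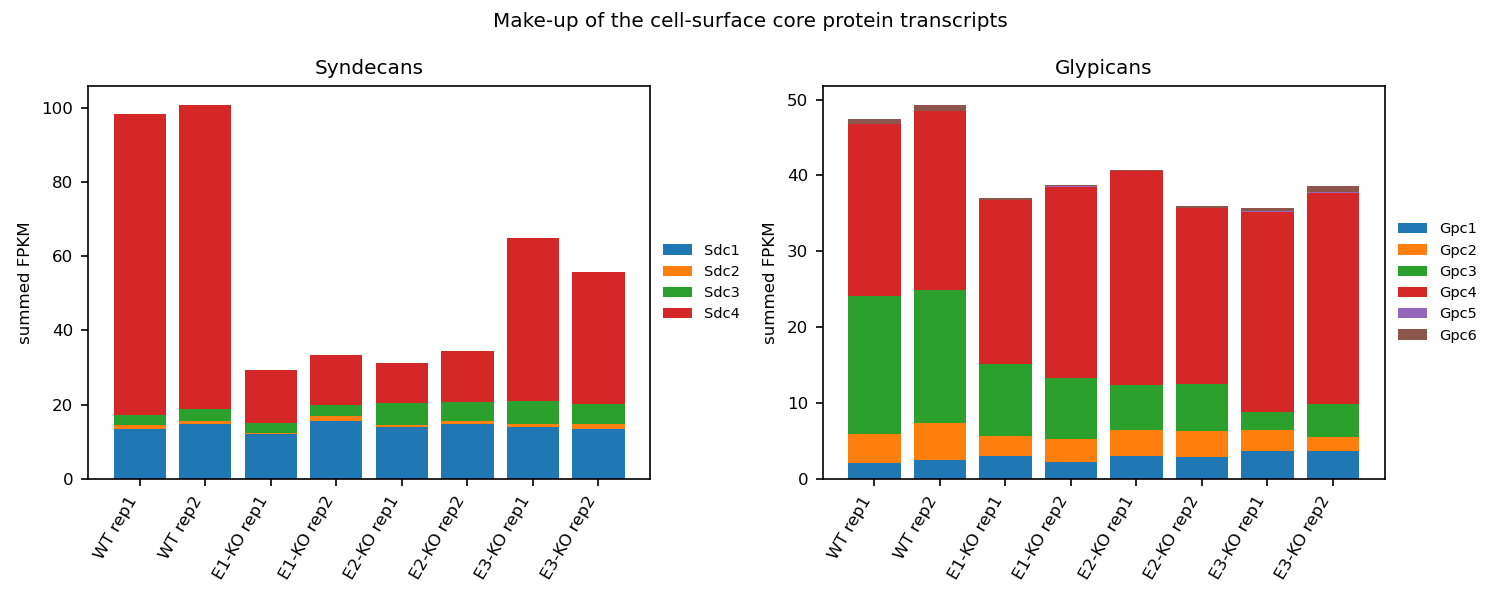
Summed FPKM (vertical axes, from 0) of the 4 syndecans and the 6 glypicans in each sample, stacked by gene. The Sdc4 band is widest in WT (81.03 and 81.92 FPKM), and the Gpc3 band is narrowest in E3-KO (2.487 and 4.222 FPKM).

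Other genes of the pathway were read from lists. For these lists and the FGF list below, the shares over all tested genes were 22.9%, 21.9% and 30.7% called lower in E1-KO, E2-KO and E3-KO. The shares called higher were 15.1%, 14.2% and 13.9%. The lists are short, and no list count was tested against these shares. Of 15 genes for the linkage to the core protein and for precursor supply, 13 were tested. In E1-KO 4 fell, in E2-KO 4 fell and 2 rose, and in E3-KO 5 fell and 2 rose, with medians of -0.32, -0.29 and -0.20. Extl2, a transferase that acts on the linkage region, fell from 2.304 and 2.126 FPKM in WT to 0.738 and 0.5989 in E3-KO (-0.95, limma-trend adjusted p = 0.00181). Extl2 was also called lower in E1-KO (-0.70, 0.00938) and E2-KO (-0.69, 0.0101), and each of these calls held in 14 of the 16 alternatives that tested it. Ugp2, which makes UDP-glucose, fell in E1-KO (-0.65, 0.00188) and E2-KO (-0.57, 0.00378). Ugdh, which turns UDP-glucose into the UDP-glucuronate used for the chain, rose in E3-KO from 31.36 and 29.19 FPKM to 49.76 and 43.27 (0.60, 0.00309). Xylt1, which adds the first sugar of the linkage, was at 1.83 and 1.466 FPKM in WT, 2.734 and 3.476 in E2-KO (0.63, limma-trend adjusted p = 0.0135). Its E3-KO samples held 2.858 and 2.573 FPKM (0.49, 0.0301). The Ugp2 and Ugdh calls held under all 17 alternatives and the E3-KO call of Extl2 under the 16 that tested it. The E2-KO call of Xylt1 was lost without E2-KO replicate 2 (0.0664) or WT replicate 2 (0.102), and its E3-KO call without any of the 4 samples compared (0.0569 to 0.179) and with no filter (0.0533).

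Among 15 other enzymes of chain growth and modification, 13 had a row and 5 were tested, while 8 were under 1 FPKM in every sample. In E1-KO and E2-KO 2 fell, and in E3-KO 3 fell, with medians of -0.27, -0.15 and -0.43. Hs3st3b1, which adds the rare 3-O-sulfate, fell in all 3 knockouts from 3.888 and 3.932 FPKM in WT to between 0.5721 and 1.589 FPKM. Its changes were -1.17, -1.08 and -1.51 (limma-trend adjusted p = 0.00151, 0.0024 and 0.000329), and they held under the 16 alternatives that tested the gene. Glce, the epimerase that makes iduronate, had changes of -0.51, -0.49 and -0.43 (0.0181, 0.0213 and 0.0292). Each Glce call was lost without WT replicate 1 (0.101, 0.115 and 0.136) or WT replicate 2 (0.0752, 0.0839 and 0.094). They were also lost without E1-KO replicate 1 (0.121), E2-KO replicate 1 (0.106) and E3-KO replicate 2 (-0.29, 0.148) respectively, in E2-KO and E3-KO with quantile normalization (0.059 and 0.184), and in E3-KO with median-ratio scaling (-0.27, 0.131), scaling without the 50 highest genes (0.0588) and no filter (0.0507). Extl1 fell in E3-KO (-0.67, 0.00542), which missed the threshold without WT replicate 2 (-0.59, 0.0518).

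Of 11 genes for breakdown of the chain and activation of sulfatases, 10 had a row and 7 were tested, of which 4, 3 and 4 fell in E1-KO, E2-KO and E3-KO (medians -0.45, -0.49 and -0.47). Hgsnat, a lysosomal acetyltransferase of heparan sulfate breakdown, fell from 9.514 and 11.18 FPKM in WT to 3.325 and 3.036 in E1-KO (-1.44, limma-trend adjusted p = 0.000462) and to 3.518 and 4.701 in E2-KO (-1.16, 0.00128). Both calls held under all 17 alternatives. Hgsnat was also called in E3-KO (-0.47, 0.0464), which 12 of the 17 did not keep. Idua, the lysosomal iduronidase, fell from 2.744 and 2.874 FPKM in WT to 1.329 and 0.8182 in E1-KO (-0.89, limma-trend adjusted p = 0.00769) and 1.431 and 0.9883 in E3-KO (-0.79, 0.01). The Idua calls were lost without WT replicate 2 (0.0528 and 0.0611) and without E1-KO replicate 2 (0.0561) or E3-KO replicate 2 (0.0613). Sumf1, which activates sulfatases including Sulf1 and Sulf2 by making their catalytic formylglycine, was at 12.45 and 11.75 FPKM in WT and 6.83 and 6.227 in E3-KO (-0.80, limma-trend adjusted p = 0.00252). Its calls in E1-KO (-0.45, 0.0369) and E2-KO (-0.49, 0.0279) were each lost in 6 of the 17 alternatives. Sumf1 lies on chromosome 6, whose 536 tested genes had a median change of -0.62 in E3-KO against -0.13 elsewhere, and the part of that shift in its fall was not tested. No member lies on chromosome 6.

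Of 10 other core proteins, 7 were tested, of which 2 fell in E1-KO, 2 fell and 1 rose in E2-KO, and 3 fell and 3 rose in E3-KO (medians -0.37, -0.14 and -0.01). Hspg2 (perlecan, a basement membrane proteoglycan) fell from 44.81 and 47.12 FPKM in WT to between 22.26 and 33.15 FPKM in the knockouts (-0.96, -0.55 and -0.62, limma-trend adjusted p = 0.000331, 0.00404 and 0.00162), under all 17 alternatives. Agrn (agrin, another matrix proteoglycan) fell as well (-0.51, -0.56 and -0.61, limma-trend adjusted p = 0.00765, 0.00526 and 0.00242). The E1-KO call of Agrn was lost without E1-KO replicate 1 (-0.51, 0.0522) or WT replicate 2 (-0.37, 0.0795), and its E2-KO call without WT replicate 2 (-0.43, 0.0567). Sdc3 rose from 2.796 and 3.275 FPKM in WT to 5.81 and 5.142 in E2-KO (0.68, 0.00687, and 0.0568 without WT replicate 1) and to 6.082 and 5.318 in E3-KO (0.73, 0.00367). Gpc2, a glypican, fell from 3.751 and 4.882 FPKM in WT to 2.745 and 1.889 in E3-KO (-0.68, limma-trend adjusted p = 0.0117), a call lost without E3-KO replicate 2 (0.0686) or WT replicate 2 (0.1).

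The chondroitin sulfate branch, which starts from the same linkage, served as a comparison. Of 16 genes 9 were tested, with 2 called lower in E1-KO, 1 in E2-KO, and 2 lower and 1 higher in E3-KO (medians -0.19, -0.05 and -0.17). Ust, a sulfotransferase acting on uronic acid, rose in E3-KO from 0.7019 and 0.7939 FPKM in WT to 1.841 and 1.875 (0.71, limma-trend adjusted p = 0.00541). Chpf2, a chondroitin polymerase subunit, fell in E1-KO (-0.69, 0.00595) and E3-KO (-0.64, 0.0066). These calls of Ust and Chpf2 held under the 16 alternatives that tested them. Csgalnact2, which starts the chondroitin chain and lies on chromosome 6, was at 6.311 and 6.342 FPKM in WT and 3.71 and 3.102 in E3-KO (-0.74, limma-trend adjusted p = 0.00219, held under the 16 alternatives that tested it). The median of chromosome 6 in E3-KO was -0.62, and the part of that shift in the fall of Csgalnact2 was not tested. Csgalnact2 was also called lower in E1-KO (-0.58, limma-trend adjusted p = 0.00848) and E2-KO (-0.46, 0.0227), with medians of chromosome 6 at -0.05 and -0.07. The E1-KO call was lost without E1-KO replicate 1 (0.057), WT replicate 1 (0.0515) or WT replicate 2 (0.0588). The E2-KO call was lost with quantile normalization (0.0723) and without either E2-KO replicate (0.0822 and 0.0532) or either WT replicate (0.102 and 0.111). No difference between this branch and the heparan sulfate lists was tested.

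**Figure D4:**
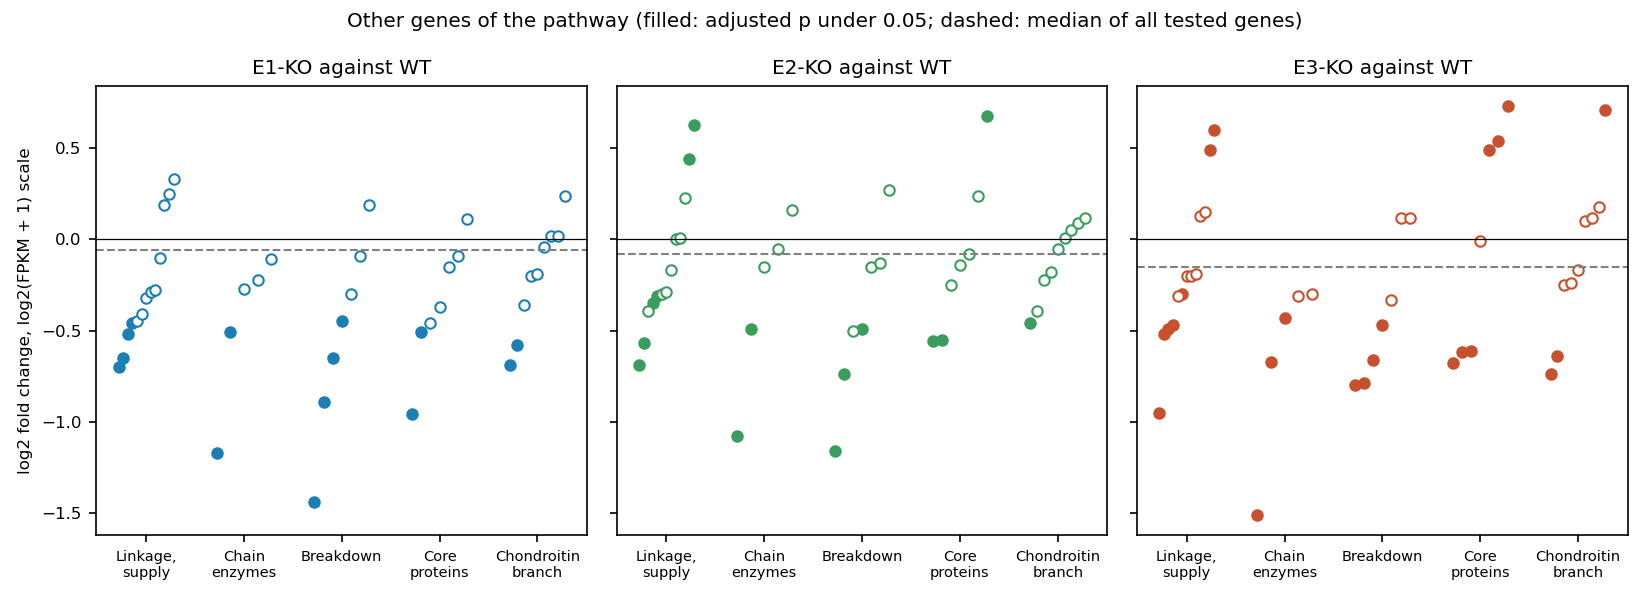
Log2 fold change against WT (vertical axis) of the tested genes in 5 pathway lists, with a panel per knockout. Filled points passed an adjusted p under 0.05, and the dashed line is the median of all tested genes (-0.06, -0.08 and -0.15). The lowest points are Hgsnat in E1-KO and E2-KO and Hs3st3b1 in E3-KO.

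FGF signal genes, read beside the chain genes, did not move as a block. Of 13 genes 9 were tested (medians 0.24, 0.16 and -0.15), of which 3 rose and 2 fell in E1-KO. The counts were 2 and 2 for E2-KO, and 1 and 2 for E3-KO. Etv4, a transcription factor induced by FGF, was at 43.92 and 41.83 FPKM in WT, 149.3 and 144.1 in E1-KO. The levels were 111.1 and 115.8 FPKM for E2-KO, against 42.17 and 38.84 for E3-KO. Its rise was called in E1-KO (1.75, limma-trend adjusted p = 2.38e-05) and E2-KO (1.38, 6.06e-05), and the E3-KO change was -0.08 (0.5). The feedback inhibitor Spry4 rose in E1-KO (1.28, 0.00779) and E2-KO (1.10, 0.016), where it was at 7.585 and 3.247 FPKM and gave 0.59 (0.0561) without E2-KO replicate 1. That E2-KO call was also lost without WT replicate 1 (0.0848), WT replicate 2 (0.0621) and with no filter (0.0517). Spred1, another inhibitor, fell from 7.407 and 8.197 FPKM in WT to 3.214 and 3.349 in E3-KO (-1.04, limma-trend adjusted p = 0.000464). Dusp6, a phosphatase that acts on ERK, was at 3.85 and 4.352 FPKM in WT, 7.107 and 7.015 in E1-KO (0.66, limma-trend adjusted p = 0.0405) and 2.419 and 2.127 in E3-KO (-0.64, 0.0401), and both calls were lost without any of the 4 samples compared (0.0794 to 0.174).

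By pattern, the 5 tested genes nearest to Sulf1 were Accsl, Dtx1, Mcf2l, Fah and Krt42. Likeness was the root mean square difference from Sulf1 in log2(FPKM + 1) minus the WT mean over the 6 knockout samples, and it was 0.287, 0.3, 0.363, 0.39 and 0.392. Dtx1, a ubiquitin ligase of Notch signalling, was at 11.77 and 15.59 FPKM in WT and at 2.985 and 3.216 in E3-KO. Fah, an enzyme of tyrosine breakdown, was at 7.881 and 8.989 FPKM in WT and 1.66 and 2.137 in E3-KO. None of the 5 fell as far as Sulf1 in E3-KO, with changes of -1.92 to -1.57. Sulf1 was picked for this fall and the 5 genes for likeness to it, so their order is a description only. The 5 genes lie on 5 different chromosomes, none of them chromosome 1 or 6.

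**Figure D5:**
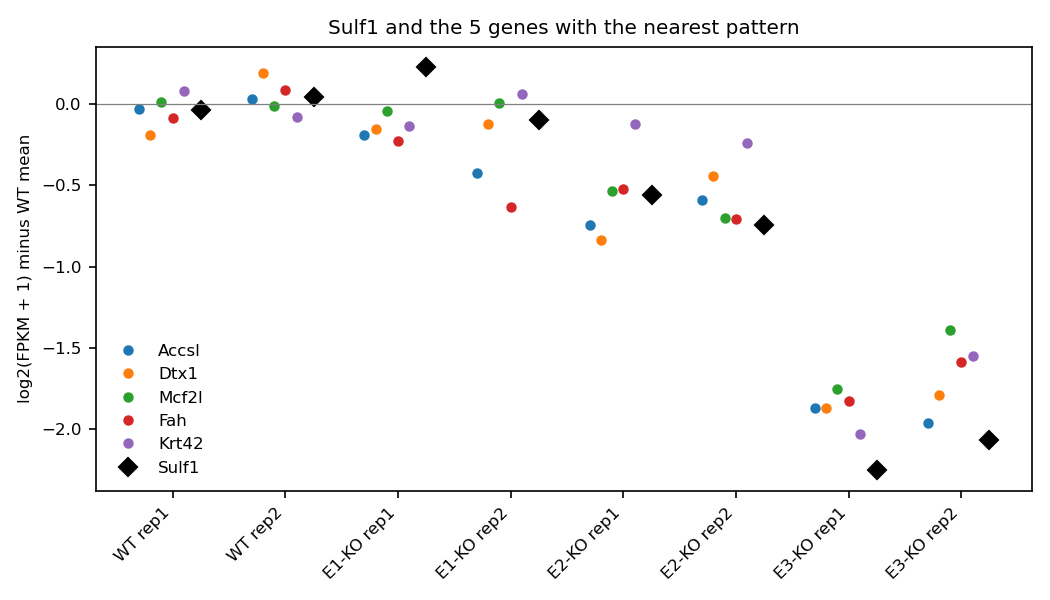
Difference from the WT mean in log2(FPKM + 1) (vertical axis) in each of the 8 samples, for Sulf1 (diamonds) and the 5 genes with the nearest pattern (circles, offset sideways). In E3-KO the diamonds lie below all circles.

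Markers of other cell types were read in the same samples, because fewer cells of a type and less RNA per cell cannot be told apart in bulk RNA. The summed level of 8 primitive and parietal endoderm markers was 98.3 to 107 FPKM in WT, 153 to 161 in E1-KO, 143 to 159 in E2-KO and 213 to 246 in E3-KO. Most of this sum was Sparc, a matrix protein (87.93 and 94.18 FPKM in WT, 231.2 and 199.5 in E3-KO), while Sox17, Sox7, Foxa2 and Pdgfra were under 1 FPKM in every sample. Gata6 was at 1.042 and 1.147 FPKM in WT and 3.723 and 1.758 in E3-KO, and at 31.7% and 45.2% of WT in E1-KO and E2-KO. Col4a1 rose in E2-KO (0.58, limma-trend adjusted p = 0.023) and E3-KO (0.84, 0.00343), whereas Lamb1, a laminin chain of the same list, fell in all 3 knockouts (-0.78, -0.76 and -0.50, limma-trend adjusted p = 0.00453, 0.00579 and 0.0257). The 8 trophectoderm markers summed to 55.0 to 58.7 FPKM in WT, 38.6 to 45.7 in E1-KO, 37.4 to 42.3 in E2-KO and 58.5 to 75.2 in E3-KO, with Cdx2, Elf5 and Hand1 under 1 FPKM in every sample. Its members moved both ways: Gata3 (1.59, limma-trend adjusted p = 0.00229) and Krt8 (1.16, 0.0015) rose in E3-KO, and Krt8 also in E1-KO (0.64, 0.0251). Krt18 (-0.67, limma-trend adjusted p = 0.0321, and -1.46, 0.00123) and Tfap2c (-1.01, 0.00052, and -0.64, 0.00422) fell in E1-KO and E2-KO. The 4 neural markers with a row summed to 8.24 to 9.69, 13.1 to 14.9, 9.93 to 10.7 and 17.3 to 18.1 FPKM in the same order. They too moved both ways: Neurod1 (1.45, limma-trend adjusted p = 0.00026) and Nes (0.87, 0.00189) rose in E3-KO. Pax6 was not called there (0.31, limma-trend adjusted p = 0.281) but rose in E1-KO (1.24, 0.00284) and E2-KO (0.66, 0.0417). Nes was also called higher in E1-KO (0.47, limma-trend adjusted p = 0.0346). Map2 fell in E2-KO (-0.78, limma-trend adjusted p = 0.033) and missed the threshold in E3-KO (-0.65, 0.0561). The 8 fibroblast markers summed to 3.28 to 3.39 FPKM in WT and 3.51 to 5.6 in the knockouts, and Col1a1, Col1a2, Col3a1, Dcn, Lum and Postn were under 1 FPKM in every sample. Thy1, of the same list, was called higher in all 3 knockouts (1.03, 0.51 and 1.06, limma-trend adjusted p = 0.00177, 0.0375 and 0.00116). Pdgfrb was not called in any of them. The part of these shifts in the changes of Sulf1, Gpc3 and Sdc4 was not tested.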

How the data were processed

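Total RNA of 8 samples had been sequenced as paired-end libraries, per the labels' protocols. The authors deposited 1 list of Ensembl identifiers and values per sample, which were taken as FPKM because the submitters' processing notes name Cufflinks 2.2.1 (with Trimmomatic 0.36, TopHat2 2.0.12 and the build mm9). The annotation and any scaling between samples are not given in the sources used here. Each list held 18774 rows with 17812 identifiers, of which 660 had more than 1 row. For these the row lying among genes of the gene's own chromosome and strand was kept, and 39 identifiers were left out. Symbols matched for 17262 identifiers, and positions are from GENCODE M21 (GRCm38), not the authors' build. FPKM cannot be turned back into reads, so no counting interval is given.

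Genes averaging 1 FPKM or more were fitted on log2(FPKM + 1) by limma-trend (limma 3.58.1, R 4.3.3) with the 8 samples fitted together and no term but the group (4 residual degrees of freedom), two-sided, with Benjamini-Hochberg adjustment within each comparison. The script was tested on simulated data. Samples with the same replicate number did not deviate together (mean correlation 0.005 over 6 pairs of groups).

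The members, lists, tests and alternatives were chosen with earlier results of these data known. Named were all members, from each list up to 4 called genes with the largest change in any knockout and the 5 genes nearest to Sulf1. A gene that this rule selects is not reported here. Marker genes named one by one were chosen after their values were seen. The 17 alternatives are given at the end. Figures used matplotlib 3.10.9.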

Additional observations from a re-analysis of the deposited data

Results flagged for a closer look

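The change against WT differed between knockouts for 4 tested members, by a direct limma-trend test of the difference. Ext2 was lower in E3-KO than in E1-KO by -0.48 (adjusted p = 0.0269), a call lost in 6 of the 17 alternatives. Hs6st1 was higher in E3-KO than in E1-KO by 0.74 (limma-trend adjusted p = 0.00439). For Gpc3 the difference of E3-KO was -1.18 from E1-KO (limma-trend adjusted p = 0.00217) and -0.74 from E2-KO (0.0282), of which the second was lost in 9 of the 17. For Sdc4 it was 1.46 from E1-KO (limma-trend adjusted p = 0.000317) and 1.61 from E2-KO (0.000597).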

How the results depend on the processing

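The alternatives were the replicate block, 3 other scalings (quantile, median ratio, without the 50 highest genes), the samples of a pair alone, no filter, a stricter filter (mean of 5 FPKM), a pseudocount of 0.1, summed rows and leaving out each sample. They were run for the members and the other genes named by rule from the pathway lists, not for the other listed genes or the markers, and no call among them changed sign. With the replicate block, whose numbers did not pair the samples (mean correlation 0.005), 31 genes were called for E2-KO against E1-KO in place of 93. Hs6st1 then passed in E2-KO against WT (limma-trend adjusted p = 0.0368) and in E3-KO against E2-KO (0.0475), Spred1 missed the threshold in E1-KO (0.0628) and E2-KO (0.0507) and Hgsnat in E3-KO (0.0638), and no other named gene changed its call under the block. The count for E2-KO against E1-KO was 1 with the pair alone, 1 without a filter and 56 with the stricter filter. The count for E3-KO against E2-KO, 1753, was 671 with the pair alone, and the members called in it went from 2 to 1 with the pair alone and without a filter. Leaving out a sample gave 2043 to 4677 genes in E1-KO against WT (4294 with all), 1872 to 4459 in E2-KO (4075) and 2830 to 5346 in E3-KO (5047). The ranges between knockouts were 2 to 252 for E2-KO against E1-KO, 1302 to 3276 for E3-KO against E1-KO (2906) and 977 to 1542 for E3-KO against E2-KO. Called members then ranged from 3 to 5 in E1-KO against WT and from 1 to 2 in E3-KO against E2-KO. A group with a sample left out holds 1 sample, which is assumed to vary like the other groups, and the fit then has fewer degrees of freedom. The cause of the other moves was not tested. Depth in reads is unknown, so its limit on low genes such as Sulf1 in E3-KO cannot be given.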
